A study of Homo sapiens with 6 samples.

Results

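The 40 genes described here encode proteins of homologous recombination and of the Fanconi anaemia pathway in OVCAR3 cells, a long-established line from a human ovarian carcinoma. They were chosen by name for their roles in repair, with earlier results of these data known, and were not picked by a threshold on these data. Of the 40 names, 39 were found as written among the 27104 genes measured, and MRE11A was found under its present symbol MRE11. There were 3 libraries labelled DAB2IP O/E (overexpression), from cells transfected with a vector made to express DAB2IP, a scaffold that restrains Ras signalling, and 3 labelled empty vector. All cells were OVCAR3 at passages 20 to 25. The labels give neither the promoter of the vectors nor whether the transfected cells were selected or cloned. Nor do they say whether the triplicates were separate cultures, so the spread behind each p-value may be technical.

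Homologous recombination copies an intact sister chromatid to mend a double-strand break. Broken ends are sensed and trimmed to single strands, BRCA1 and BRCA2 prepare them for pairing with the intact copy, and helicases and nucleases resolve the joined molecules. The Fanconi anaemia pathway attaches ubiquitin to the FANCD2 and FANCI proteins where a crosslink between the DNA strands blocks replication, and it hands the opened crosslink to the recombination enzymes. Both pathways are known in ovarian cancer because platinum drugs make such crosslinks, and because tumours that have lost recombination are sensitive to inhibitors of PARP.

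Measured DAB2IP ran opposite to its label. Its level was 5.74, 5.02 and 5.73 FPKM (fragments scaled for transcript length and library depth) in the libraries labelled DAB2IP O/E and 7.49, 7.76 and 8.01 FPKM in the empty vector libraries, a log2 change of −0.43 (SE 0.06, adjusted p = 0.00548, limma). Whether the labels of the groups were exchanged, or RNA made from the vector was left out of the counts, was not tested. So every fall and rise below is relative to the labels as given, in libraries that measured less DAB2IP. The libraries held 20445867 to 35434533 reads, recovered as whole numbers from the FPKM. All 13 ovarian carcinoma markers, such as PAX8 at 60.9 to 78.4 FPKM, passed the filter on low values described below. Because 1 protocol label names adipocytes, 7 of their markers were also read. The adipocyte genes PLIN1, CIDEC and LPL stayed at or below 0.071 FPKM in every library. The summed FPKM of the 7 was 4.91 to 5.75 in the libraries labelled DAB2IP O/E and 6.38 to 7.68 in the empty vector libraries, most of it from THRSP, a regulator of lipid synthesis.

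The 4 promoters below belong to genes that fell, since the fall of repair genes is the pattern described here. Among the 7 fallen genes with a promoter, these 4 are the ones that held an E2F or CHR match, as defined below. They are UBE2T and POLQ, with the largest falls, FANCD2, the protein that the Fanconi pathway modifies, and XRCC2, a mediator of recombination. Each runs from 250 bases before to 50 bases after the RefSeq gene start (GRCh38.p14), 5′ to 3′ on the gene's strand. Capitals mark matches on either strand to an E2F site (TTTCCCGC, TTTCGCGC, TTTGCCGC or TTTGGCGC), to the CHR element of cell cycle genes (TTTGAA) or to CCAAT, the box bound by NF-Y.
UBE2T, chr1:202341887-202342186, minus strand: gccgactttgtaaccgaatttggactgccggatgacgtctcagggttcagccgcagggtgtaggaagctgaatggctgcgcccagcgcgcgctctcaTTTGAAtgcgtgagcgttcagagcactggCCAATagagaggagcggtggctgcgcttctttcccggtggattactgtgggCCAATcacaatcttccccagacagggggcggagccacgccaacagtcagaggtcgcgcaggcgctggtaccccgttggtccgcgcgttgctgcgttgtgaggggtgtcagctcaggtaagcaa
POLQ, chr3:121545939-121546238, minus strand: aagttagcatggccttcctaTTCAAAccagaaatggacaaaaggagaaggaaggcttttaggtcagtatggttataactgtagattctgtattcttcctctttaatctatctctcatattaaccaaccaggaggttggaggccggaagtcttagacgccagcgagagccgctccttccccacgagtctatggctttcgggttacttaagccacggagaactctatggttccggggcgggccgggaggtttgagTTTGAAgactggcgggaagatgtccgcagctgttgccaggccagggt
FANCD2, chr3:10026187-10026486, plus strand: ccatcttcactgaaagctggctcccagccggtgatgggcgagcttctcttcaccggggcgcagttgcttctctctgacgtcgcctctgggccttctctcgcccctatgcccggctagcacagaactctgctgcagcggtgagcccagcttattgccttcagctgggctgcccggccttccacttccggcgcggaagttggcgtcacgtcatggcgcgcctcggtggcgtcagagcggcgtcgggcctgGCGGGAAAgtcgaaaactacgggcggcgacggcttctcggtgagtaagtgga
XRCC2, chr7:152676092-152676391, minus strand: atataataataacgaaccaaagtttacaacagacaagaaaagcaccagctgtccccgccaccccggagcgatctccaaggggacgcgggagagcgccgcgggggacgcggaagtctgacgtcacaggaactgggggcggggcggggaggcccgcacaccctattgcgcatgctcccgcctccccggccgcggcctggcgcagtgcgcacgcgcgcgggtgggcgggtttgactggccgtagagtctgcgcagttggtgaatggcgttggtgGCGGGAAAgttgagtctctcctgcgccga

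An E2F match began 2 bases before the start in FANCD2 and 21 bases after it in XRCC2, CHR matches began 230 bases before the start of POLQ and at base 3 after it, and UBE2T held a CHR match and 2 CCAAT matches. The RefSeq table held promoters for 37 of the 40 genes. An E2F match was present in 5 of the 37 (13.5%), against 5.62% of the promoters of 8903 genes tested and 3.33% of all 27305 promoters. The CHR letters were in 6 of the 37 (16.2%), against 9.44% and 15.4% of the same sets, and CCAAT was in 15 of the 37 (40.5%), against 37.2% and 35.7%. Of the 7 genes that fell and had a promoter, 2 held each motif (28.6%). Among them ATR and FANCB held none of the motifs, and RAD54L held CCAAT matches alone. RAD54B, which also fell, had no promoter there. Of the 30 other members with a promoter, 3 held an E2F match (10%), 4 the CHR letters (13.3%) and 13 CCAAT (43.3%). A match is a run of letters and not a known site, and no test was made of these shares.

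Levels spanned from RAD51B, at 0.521 to 0.823 FPKM over the 6 libraries, to UBE2T, at 47.3 to 82.3 FPKM. FPKM are per length, so levels can be set side by side between genes. UBE2T stood above PARP1, at 40.02 to 46.2 FPKM, in every library, and PARP1 above all other members. Between them and the bottom the order was mostly not resolved, since only 5 of the 39 pairs of neighbours in the order had no overlap over the 6 libraries. BRCA2, SLX4, RAD51D and RAD51B formed the low end, all with means near or below 1 FPKM. The genes RAD51B, RAD51D and SLX4 lay under the filter of a mean of 1 FPKM and were left out of the test, and 37 members passed it.

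**Figure D1:**
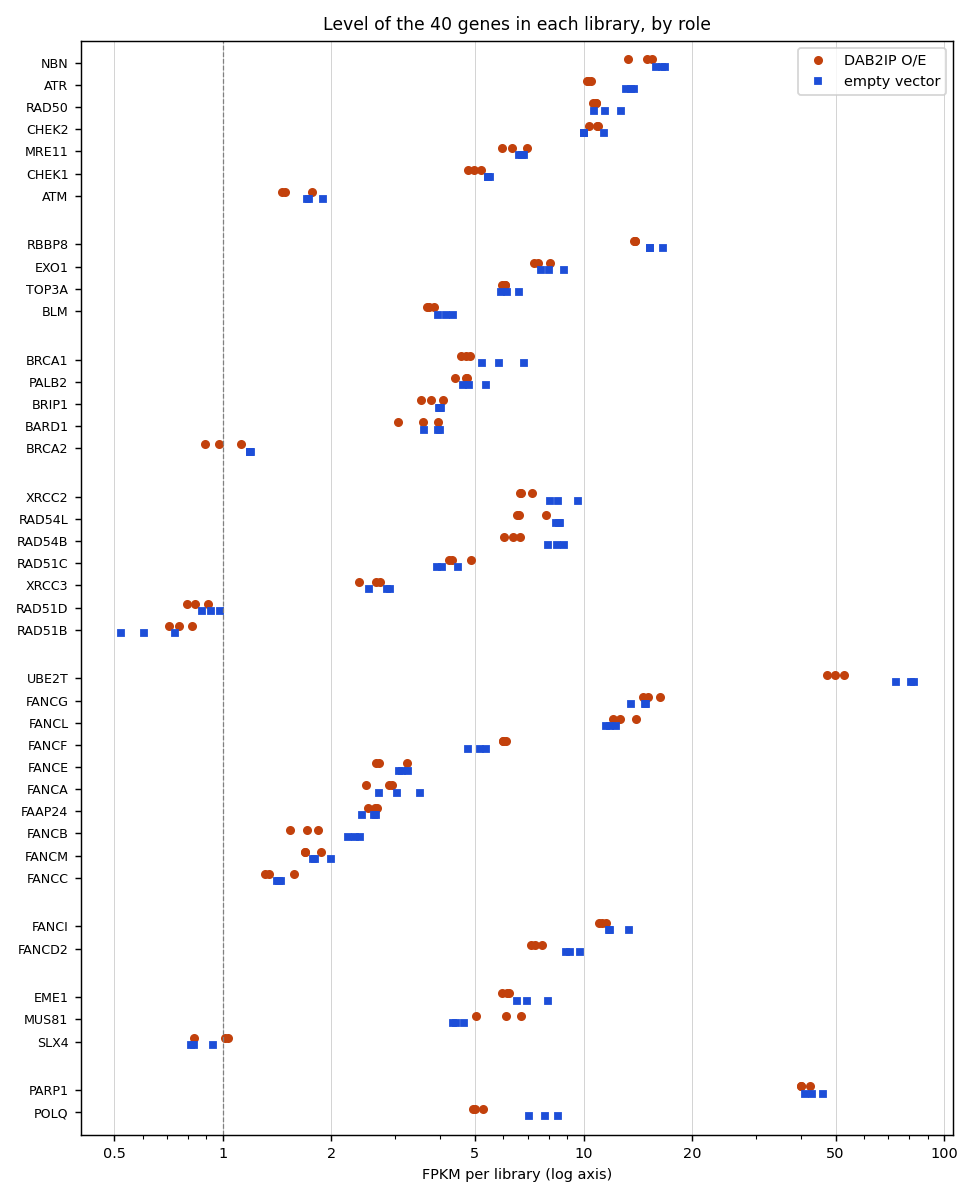
FPKM of each of the 40 genes (rows, in blocks by role) in the 3 libraries labelled DAB2IP O/E (circles) and the 3 empty vector libraries (squares), on a log axis with the filter of 1 FPKM dashed. UBE2T and PARP1 stand above the others. Of the 37 tested genes, 16 lie wholly below empty vector (43.2%, against 20.9% of all genes), POLQ, ATR and UBE2T among them. Another 2 lie wholly above it (5.41%, against 19.5%).

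Set against empty vector, 8 of the 37 tested genes fell and 2 rose where the label was DAB2IP O/E, at an adjusted p under 0.05 (limma on log2(FPKM + 1), Benjamini-Hochberg over 14761 genes). UBE2T, POLQ, ATR, RAD54B, FANCD2, FANCB, XRCC2 and RAD54L fell, and MUS81 and FANCF rose. The share that fell was 21.6%, against 9.17% of all 14761 genes tested, and the share that rose was 5.41%, against 9.29%, which makes 10 called members where 18.5% of all genes were called. All 3 values labelled DAB2IP O/E lay below all 3 of empty vector in 16 members (43.2%), against 20.9% of all genes, and above them in 2 members (5.41%), against 19.5%, or 18 members in either direction, against 40.4%. The median log2 change of the 37 was −0.11, beside −0.00042 over all genes tested, and 30 of the 37 changes were below 0 (81.1%, against 50.1% of all genes). With library medians set equal, 10 fell and 0 rose, BRCA1 and RBBP8 being added to the falls and MUS81 and FANCF lost (limma; 2 rose by limma-voom, and 2 members were higher at an unadjusted p under 0.05 without that scaling). Over all genes that scaling gave 1673 falls and 1160 rises, against 1354 and 1371. The count of falls was 4 with the third library labelled DAB2IP O/E left out and 5 when the second empty vector library was left out. There was 1 rise when either the second library labelled DAB2IP O/E or the third of empty vector was left out, and 0 without any 1 of the other 4. No set test was made. In bulk RNA, fewer cells that express a gene cannot be told apart from less RNA per cell.

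**Figure D2:**
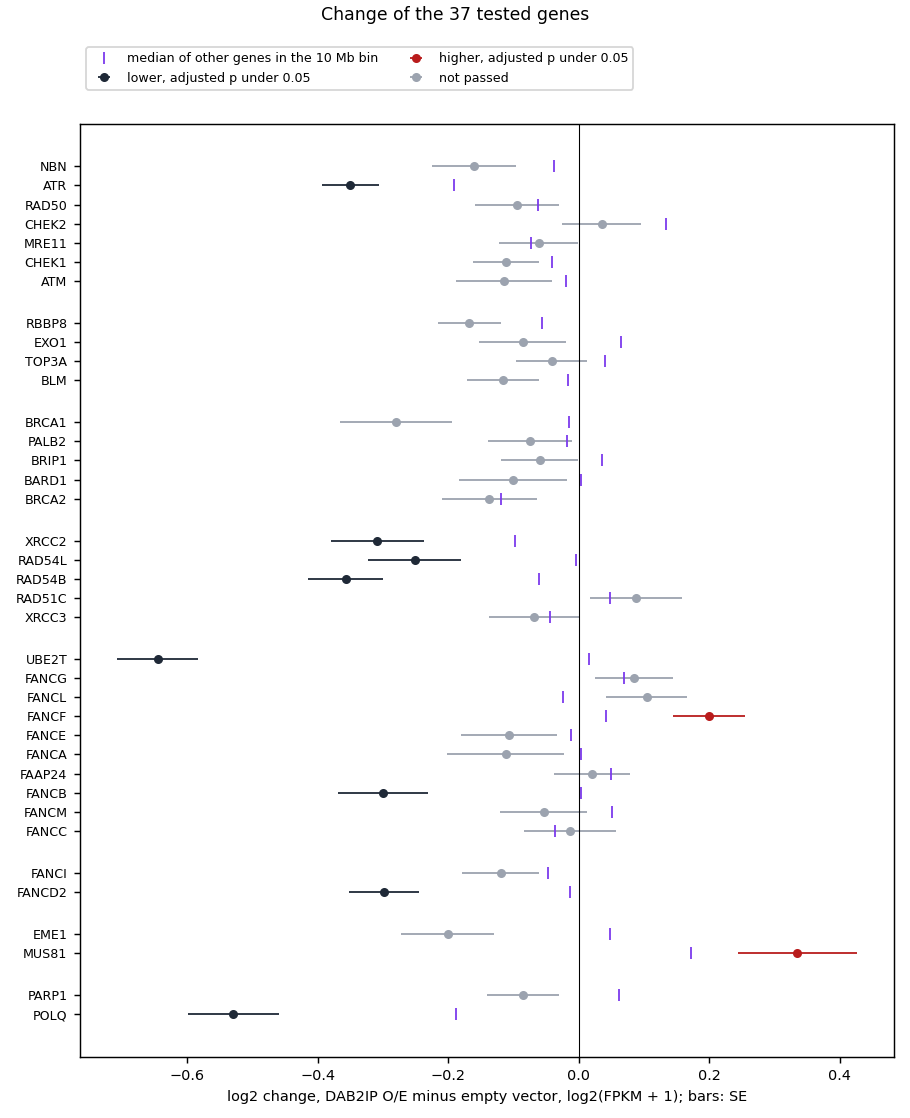
Log2 change (libraries labelled DAB2IP O/E minus empty vector, on log2(FPKM + 1), bars SE) of the 37 tested genes by role, with a tick at the median of the other tested genes in the same 10 Mb of chromosome. UBE2T (−0.65) and POLQ (−0.53) lie farthest left, and MUS81 (0.34) and FANCF (0.20) are to the right of 0.

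The authors' deposited table gave a similar count from their own test. It called 10 of the 40 lower and 1 higher in the libraries labelled DAB2IP O/E at an adjusted p under 0.05, where 9.26% and 9.73% of its 20272 genes were called. Its 10 were the same 8 genes with BRCA1 and RBBP8 added, and its single rise was MUS81. FANCF had an adjusted p of 0.0567 in the authors' deposited table. Their log2 fold change runs the other way, empty vector over DAB2IP O/E, and was 0.66 for UBE2T and 0.61 for POLQ.

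Among the sensors of breaks and the checkpoint kinases, ATR fell and the other 6 did not pass. ATR, the kinase that answers to single-stranded DNA at stalled forks, was at 10.3, 10.5 and 10.3 FPKM in the libraries labelled DAB2IP O/E, against 13.8, 13.5 and 13.1 FPKM with empty vector. The groups did not overlap, and the log2 change was −0.35 (SE 0.04, adjusted p = 0.00347, limma). The gene (ENSG00000175054.14) lies on chromosome 3, from 142449235 to 142578826 in GRCh38, minus strand, where AC109992.1 on the opposite strand overlaps 16.4% of its exon bases. In its 10 Mb stretch the median of the 39 other tested genes was −0.19. Whether the region plays a part in the fall was not tested.

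ATM, the kinase that answers to double-strand breaks, had 1.49, 1.77 and 1.46 FPKM in the libraries labelled DAB2IP O/E and 1.72, 1.90 and 1.73 FPKM with empty vector. The ranges overlapped, with a log2 change of −0.11 (SE 0.07, adjusted p = 0.311, limma). CHEK2, the kinase that ATM activates, had 10.9, 11 and 10.4 FPKM under the DAB2IP O/E label and 11.4, 10.0 and 10.1 FPKM with empty vector, at a log2 change of 0.03 (SE 0.06, adjusted p = 0.713, limma). CHEK1, the target of ATR, averaged 4.98 ± 0.198 FPKM in the libraries labelled DAB2IP O/E and 5.46 ± 0.0345 FPKM with empty vector (SD, n = 3 each), with groups apart but an adjusted p of 0.158 (limma). MRE11, RAD50 and NBN form the complex that first binds a broken end. Their log2 changes were −0.06, −0.10 and −0.16, with adjusted p-values of 0.508, 0.334 and 0.122 (limma). RAD50 shares 79.7% of its exon bases with AC116366.3, a gene annotated on the same strand, so its reads may be divided.

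None of the 4 genes of end resection and dissolution passed. RBBP8 encodes CtIP, which starts the trimming of ends with MRE11. It had 13.9, 13.9 and 13.8 FPKM in the libraries labelled DAB2IP O/E, against 16.6, 15.3 and 15.3 FPKM with empty vector. These groups were apart, at a log2 change of −0.17 (SE 0.05) and an adjusted p of 0.0507 (limma). RBBP8 passed with limma-voom on the recovered reads, with the filter of 5 FPKM and with equal library medians, and 1 of the 4 was lower at an unadjusted p under 0.05 in limma. The nuclease EXO1, the helicase BLM and its partner topoisomerase TOP3A had log2 changes of −0.09, −0.12 and −0.04.

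All 5 genes of the BRCA complexes had log2 changes below 0, as had 81.1% of the tested members and 50.1% of all genes, and none passed. BRCA1, the ubiquitin ligase that promotes resection and recombination, had 4.85, 4.73 and 4.57 FPKM in the libraries labelled DAB2IP O/E and 6.84, 5.84 and 5.22 FPKM with empty vector. All of the first lay below all of the second, but the empty vector libraries spread widely, and the log2 change of −0.28 (SE 0.09) had an adjusted p of 0.0625 (limma). It became 0.0256 without the third empty vector library, and was 0.0489 with the filter of 5 FPKM, 0.0483 with equal library medians and 0.0108 with limma-voom. In the authors' deposited table the adjusted p of BRCA1 was 0.00286. The gene (ENSG00000012048.20) lies on the minus strand of chromosome 17, from 43044295 to 43170245 in GRCh38.

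BRCA2, a mediator that works on the single strand, had 0.893, 1.122 and 0.974 FPKM in the libraries labelled DAB2IP O/E and 1.19, 1.19 and 1.2 FPKM with empty vector. The groups did not overlap, and the log2 change was −0.14 (SE 0.07, adjusted p = 0.224, limma). At this low level log2(FPKM + 1) understates the change. The mean FPKM changed by −16.5%, and limma-voom gave a log2 change of −0.27 (adjusted p = 0.0588). PALB2, the bridge between BRCA1 and BRCA2, had 4.41, 4.76 and 4.74 FPKM under the DAB2IP O/E label and 4.63, 5.38 and 4.82 FPKM with empty vector, overlapping and with an adjusted p of 0.448 (limma). BRIP1, the helicase that binds BRCA1, had 3.55, 4.07 and 3.78 FPKM under the DAB2IP O/E label and 4.04, 3.96 and 3.99 FPKM with empty vector, also overlapping (adjusted p = 0.504, limma). BARD1, the partner of BRCA1 in the ligase, averaged 3.53 ± 0.445 FPKM in the libraries labelled DAB2IP O/E and 3.85 ± 0.216 FPKM with empty vector (SD, n = 3 each). Of the 5 genes, 0 passed in limma, 1 was lower at an unadjusted p under 0.05, and 1 passed with limma-voom, in each case BRCA1.

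The mediators XRCC2, XRCC3, RAD51B, RAD51C and RAD51D, which help strand pairing, and the RAD54 motors, which drive the search for a matching strand, held 3 falls among 5 tested genes, where 9.17% of all genes fell. There was 1 fall with the third library labelled DAB2IP O/E or the second of empty vector left out, and 2 without any 1 of the other 4. XRCC2 had 6.67, 7.20 and 6.69 FPKM in the libraries labelled DAB2IP O/E, against 9.68, 8.52 and 8.05 FPKM with empty vector. The groups were apart, at a log2 change of −0.31 (SE 0.07, adjusted p = 0.026, limma). RAD54B had 6.04, 6.67 and 6.37 FPKM under the DAB2IP O/E label and 8.86, 8.44 and 7.99 FPKM with empty vector, likewise apart, with a log2 change of −0.36 (SE 0.06, adjusted p = 0.00826, limma). Of its exon bases 59.1% are shared with FSBP on the same strand, so part of its reads may belong there. RAD54L had 7.89, 6.64 and 6.53 FPKM under the DAB2IP O/E label and 8.53, 8.40 and 8.63 FPKM with empty vector, and its log2 change of −0.25 (SE 0.07) was just past the threshold (adjusted p = 0.0491, limma).

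In GRCh38 XRCC2 (ENSG00000196584.2) is at 152644779 to 152676165 of chromosome 7, minus strand, RAD54B (ENSG00000197275.13) at 94371960 to 94475109 of chromosome 8, minus strand, and RAD54L (ENSG00000085999.11) at 46247688 to 46278473 of chromosome 1, plus strand. The fall of RAD54B was called in each alternative run and those of the other pair were not. With the first or the third library labelled DAB2IP O/E left out, the adjusted p of XRCC2 was 0.0837 or 0.0957, and with the second of empty vector left out it was 0.0666 (limma). RAD54L lost its call in 10 of the 16 alternatives. Its adjusted p was 0.119 or 0.163 with the second or the third library labelled DAB2IP O/E left out, and 0.0934, 0.113 or 0.0941 with the first, the second or the third of empty vector left out (limma). It also shares 25.1% of its exon bases with the opposite-strand LRRC41. RAD51C, which joins several of the mediator complexes, had 4.87, 4.24 and 4.32 FPKM in the libraries labelled DAB2IP O/E and 4.49, 3.92 and 4.04 FPKM with empty vector. The ranges overlapped (log2 change 0.09, SE 0.07, adjusted p = 0.415, limma). XRCC3, which shares 76.7% of its exon bases with the opposite-strand KLC1, had a log2 change of −0.07. Below the filter, RAD51D had 0.797, 0.913 and 0.84 FPKM under the DAB2IP O/E label and 0.878, 0.926 and 0.983 FPKM with empty vector. RAD51B had 0.710, 0.755 and 0.823 FPKM under the DAB2IP O/E label and 0.603, 0.521 and 0.736 FPKM with empty vector. Neither separated the groups.

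Most of the Fanconi core complex, the ubiquitin ligase of the pathway, did not pass, while the enzyme that works with it fell most of the 37 genes tested. UBE2T is the ubiquitin-conjugating enzyme that the core complex uses on FANCD2. It was at 49.9, 52.8 and 47.3 FPKM in the libraries labelled DAB2IP O/E, against 73.6, 80.7 and 82.3 FPKM with empty vector. The highest of the first group lay far below the lowest of the second. UBE2T fell by 36.6% in mean FPKM, a log2 change of −0.65 (SE 0.06, adjusted p = 0.00139, limma), and was called in each alternative run. The gene (ENSG00000077152.9) lies on the minus strand of chromosome 1, from 202331657 to 202341980 in GRCh38, where the 86 other tested genes of its 10 Mb had a median of 0.02.

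FANCB, a core subunit encoded on the X chromosome, had 1.53, 1.84 and 1.72 FPKM in the libraries labelled DAB2IP O/E and 2.32, 2.23 and 2.40 FPKM with empty vector. The groups were apart, with a log2 change of −0.30 (SE 0.07, adjusted p = 0.0252, limma), but it rested on 139 to 219 reads a library. The adjusted p was 0.0765 or 0.085 with the first or the third library labelled DAB2IP O/E left out, and 0.0542, 0.0649 or 0.0588 with the first, the second or the third of empty vector left out (limma). FANCF, an adaptor subunit, went the other way, with 6.0, 6.09 and 5.96 FPKM under the DAB2IP O/E label and 5.18, 4.79 and 5.38 FPKM with empty vector. Its log2 change was 0.20 (SE 0.05, adjusted p = 0.0441, limma). That call was lost with equal library medians (adjusted p = 0.0655, limma). It was also lost without any 1 library other than the third of empty vector, at adjusted p-values of 0.0724 to 0.143 (limma).

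The catalytic subunit FANCL had a log2 change of 0.10 and FANCG of 0.08, while FANCA, FANCC and FANCE had −0.11, −0.01 and −0.11. FANCM and FAAP24, which anchor the complex to DNA, had −0.05 and 0.02. These 7 had adjusted p-values of 0.278 to 0.907 (limma). Of the pair that the complex modifies, FANCD2 fell and FANCI did not pass, a difference that was not tested. FANCD2 had 7.34, 7.67 and 7.13 FPKM in the libraries labelled DAB2IP O/E, against 9.80, 8.95 and 9.17 FPKM with empty vector. The groups were apart, at a log2 change of −0.30 (SE 0.05, adjusted p = 0.012, limma), and the adjusted p was 0.0599 with the third library labelled DAB2IP O/E left out. FANCI averaged 11.3 ± 0.236 FPKM in the libraries labelled DAB2IP O/E and 12.4 ± 0.894 FPKM with empty vector (SD, n = 3 each), a log2 change of −0.12 (SE 0.06) that did not pass (adjusted p = 0.191, limma). FANCD2 has a pseudogene in the tables, FANCD2P2, and lies on chromosome 3 from 10026414 to 10101930, plus strand, where the median of 49 other genes was −0.01.

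**Figure D3:**
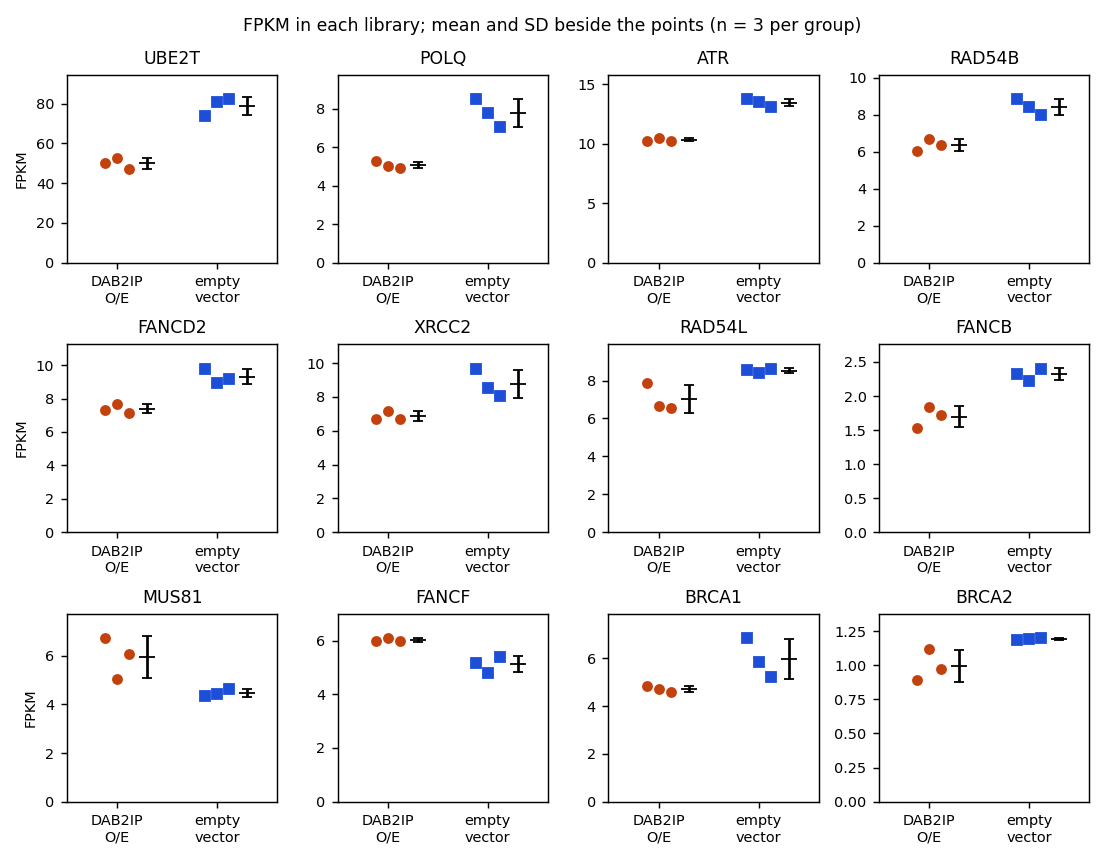
FPKM in each library for the 10 genes that passed the test and for BRCA1 and BRCA2, with circles for libraries labelled DAB2IP O/E, squares for empty vector and the mean with its SD beside them. All axes start at 0, and in each of the 12 genes shown the 2 groups are apart. Among all 37 tested members, 16 were apart below and 2 above empty vector, against 20.9% and 19.5% of all genes.

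Among the nucleases that cut joined or crosslinked strands, MUS81 rose. It had 6.72, 5.02 and 6.09 FPKM in the libraries labelled DAB2IP O/E, against 4.35, 4.44 and 4.65 FPKM with empty vector. The groups were apart although the libraries labelled DAB2IP O/E spread widely, and the log2 change was 0.34 (SE 0.09, adjusted p = 0.044, limma). The adjusted p was 0.0506 with equal library medians. It was 0.113 or 0.135 with the first or the third library labelled DAB2IP O/E left out, and 0.0958, 0.114 or 0.0631 with the first, the second or the third of empty vector left out (limma). MUS81 (ENSG00000172732.11) is at 65857126 to 65867653 of chromosome 11 in GRCh38, plus strand, where the 222 other tested genes of the 10 Mb had a median log2 change of 0.17. The part of the region was not tested. Of its exon bases 14.1% are shared, most with the opposite-strand CFL1.

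EME1, a partner with which MUS81 cuts DNA, averaged 6.09 ± 0.145 FPKM in the libraries labelled DAB2IP O/E and 7.16 ± 0.735 FPKM with empty vector (SD, n = 3 each), with groups apart and an adjusted p of 0.0911 (limma). It passed when the third empty vector library was left out. SLX4, the scaffold that holds MUS81 and other nucleases, lay below the filter at 1.01, 0.834 and 1.04 FPKM under the DAB2IP O/E label and 0.817, 0.939 and 0.834 FPKM with empty vector.

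POLQ and PARP1 mark the routes used when recombination is missing. POLQ, the polymerase theta of end joining by microhomology, had 5.28, 5.01 and 4.94 FPKM in the libraries labelled DAB2IP O/E and 8.51, 7.81 and 7.05 FPKM with empty vector. The lowest empty vector library was well above the highest of the other group. POLQ fell by 34.8% in mean FPKM, a log2 change of −0.53 (SE 0.07, adjusted p = 0.00426, limma), and was called in each alternative run. It lies on the minus strand of chromosome 3, from 121431427 to 121546641 in GRCh38, where the 82 other tested genes of the 10 Mb had a median of −0.19. PARP1, the sensor of strand breaks that PARP inhibitors target, had 42.5, 40.06 and 40.02 FPKM under the DAB2IP O/E label and 46.2, 43.0 and 41.2 FPKM with empty vector. Its groups overlapped, and the log2 change of −0.09 (SE 0.06) had an adjusted p of 0.316 (limma) on 6606 to 10966 reads a library.

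Partners that work as one complex could be compared within a library, and 7 such pairs were chosen after the values were seen and are given with no test. The ratios of FPKM did not overlap between the groups in 4 pairs, and 40.4% of all single genes did not overlap either. MUS81 over EME1 was at 1.10, 0.848 and 0.980 where the label was DAB2IP O/E, against 0.545, 0.635 and 0.712 with empty vector. UBE2T over FANCL was 3.56, 4.20 and 3.92 under the DAB2IP O/E label, against 5.97, 6.97 and 6.95 with empty vector. FANCD2 over FANCI was 0.638, 0.695 and 0.633 under the DAB2IP O/E label, against 0.732, 0.754 and 0.777 with empty vector. The ratio of XRCC3 to RAD51C was likewise apart, and those of BRCA1 to BARD1, BLM to TOP3A and FANCM to FAAP24 overlapped.

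Other genes of the same pathways, from lists written from textbook knowledge, moved in both directions. Of 33 further recombination genes tested, 2 fell and 0 rose, where 9.17% and 9.29% of all genes did, with a median log2 change of −0.10. In limma 10 were lower and 3 higher at an unadjusted p under 0.05, and 6 fell and 2 rose with limma-voom. BCCIP, which binds BRCA2, averaged 28.6 ± 0.797 FPKM in the libraries labelled DAB2IP O/E and 36.7 ± 1.70 FPKM with empty vector (SD, n = 3 each). It fell at a log2 change of −0.35 (SE 0.05, adjusted p = 0.00537, limma). Of 17 further Fanconi genes, 2 fell (11.8%, against 9.17% of all genes) and 3 rose (17.6%, against 9.29%). With the second library labelled DAB2IP O/E left out 4 fell, and with the third left out 1 fell and 0 rose. There was 1 rise with the first of them or the first of empty vector left out, and 1 fall and 1 rise without the second of empty vector. Of the 33 recombination genes, 1 fell with the third library labelled DAB2IP O/E left out. USP1, which removes ubiquitin from FANCD2, fell to 31.5 ± 1.07 FPKM in the libraries labelled DAB2IP O/E, against 41.2 ± 2.13 FPKM with empty vector (SD, n = 3 each). REV3L, the catalytic subunit of polymerase zeta, rose at a log2 change of 0.32.

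The partners of ATR held 4 falls (30.8%) and 2 rises (15.4%) among 13 tested genes, where 9.17% of all genes fell and 9.29% rose. Their median log2 change was −0.15. TOPBP1, the activator of ATR, had 35.0, 38.0 and 36.5 FPKM in the libraries labelled DAB2IP O/E, against 51.0, 48.3 and 47.4 FPKM with empty vector (log2 change −0.41, SE 0.05, adjusted p = 0.0033, limma). The groups were far apart. In the 10 Mb of chromosome 3 that hold TOPBP1, the 47 other tested genes had a median log2 change of −0.26. CDC25B, a phosphatase that promotes entry into mitosis, rose at a log2 change of 0.43, and RAD9A, a subunit of the clamp at damaged DNA, rose at 0.32. RAD9A lies in the same 10 Mb of chromosome 11 as MUS81, where the 222 other tested genes had a median of 0.17. The part of these regions was not tested. Among 16 genes of the BRCA1-A complex and of signalling in chromatin around a break, 4 fell (25%) and 1 rose (6.25%), against the same shares of all genes. TRIP13, RIF1, TP53BP1 and RNF168 were the falls and BABAM2, a subunit of the BRCA1-A complex, was the rise. Leaving out the first or the third library labelled DAB2IP O/E or the second of empty vector gave 1 fall each time among the ATR partners, and 2, 0 and 0 falls among these 16 genes.

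Genes of other repair routes were read in the same way. Base excision and PARP partners had 2 falls (10.5%, against 9.17% of all genes) and 0 rises among 19. The falls were the glycosylase MBD4, at a log2 change of −0.52, and HPF1, the cofactor of PARP1, at −0.23. In limma 7 were lower and 0 higher at an unadjusted p under 0.05, and with limma-voom 5 fell and 0 rose. In the 10 Mb of chromosome 3 that hold MBD4, as well as POLQ, the 82 other tested genes had a median log2 change of −0.19. Among the 19 genes there were 5 falls without the third empty vector library. There was 1 without the first or the second of empty vector or with the third labelled DAB2IP O/E left out. Of 14 genes of non-homologous end joining 0 passed in limma, although 4 were lower and 2 higher at an unadjusted p under 0.05, and 2 fell and 1 rose with limma-voom. With the second library labelled DAB2IP O/E left out, 1 of the 14 rose in limma. Of 19 genes of nucleotide excision repair 0 passed in limma, 2 were lower and 2 higher at an unadjusted p under 0.05, and 1 fell and 1 rose with limma-voom. Of 7 mismatch repair genes 0 passed in limma and 0 with limma-voom, and 1 was higher at an unadjusted p under 0.05. Over all the related repair lists 14 of 138 genes fell (10.1%, against 9.17% of all genes) and 6 rose (4.35%, against 9.29%). Falls and rises together, the 20 calls were near or below the share of all genes that passed, 18.5%. Leaving out the first or the third library labelled DAB2IP O/E gave 11 or 6 calls. Without the second of empty vector there were 7. Other measures of the 138 genes leaned to falls. All 3 values labelled DAB2IP O/E lay below all 3 of empty vector in 38.4%, against 20.9% of all genes. Among the 37 tested members that share was 43.2%. The 3 values lay above in 13.8%, against 19.5% of all genes. At an unadjusted p under 0.05, 43 were lower and 16 higher in limma. With limma-voom 29 genes of the lists fell and 11 rose. Whether the lists differ from the 40 genes was not tested.

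Cell cycle genes moved with the falls. Among 25 genes that act in G2 and mitosis, 20 fell (80%, against 9.17% of all genes) and 0 rose. Their median log2 change was −0.27, and 0 were higher at an unadjusted p under 0.05 in limma or with limma-voom. The falls were 8 with the third library labelled DAB2IP O/E left out and 13 without the second of empty vector, and 15 to 20 without any 1 of the others. Their summed FPKM was 882 to 915 in the libraries labelled DAB2IP O/E and 1078 to 1132 with empty vector. MKI67, the proliferation marker Ki-67, had 16.1, 16.6 and 16.3 FPKM in the libraries labelled DAB2IP O/E, against 24.9, 23.5 and 21.9 FPKM with empty vector. Among 27 genes of G1/S and replication, 13 fell (48.1%, against 9.17% of all genes) and 0 rose. Of these 27, 0 were higher at an unadjusted p under 0.05 in limma or with limma-voom. Leaving out the first, the second or the third library labelled DAB2IP O/E, 6, 7 or 4 fell, and 9, 5 or 10 did without the first, the second or the third of empty vector. Their summed FPKM was 744 to 751 in the libraries labelled DAB2IP O/E and 873 to 886 with empty vector, and that of the 40 repair genes was 305 to 316 where the label was DAB2IP O/E and 358 to 372 with empty vector. CCNE1, the cyclin of S-phase entry, fell to 33.1 ± 1.30 FPKM in the libraries labelled DAB2IP O/E, against 42.5 ± 1.06 FPKM with empty vector (SD, n = 3 each). The part of the cell cycle genes in the falls of the repair genes was not tested.

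**Figure D4:**
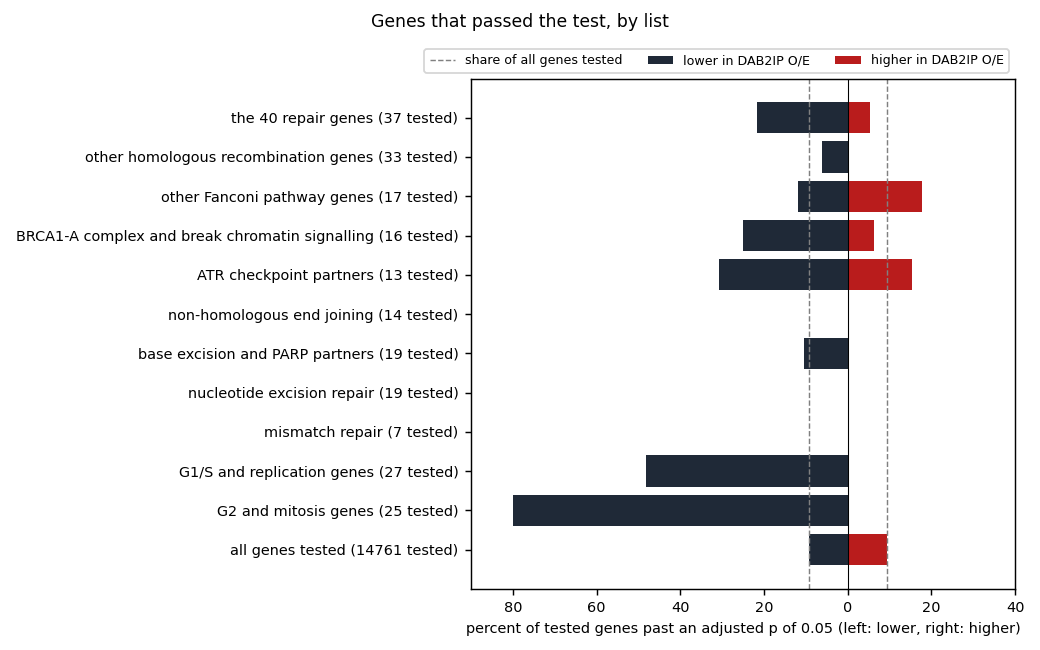
Percent of tested genes that fell (left of 0) or rose (right of 0) at an adjusted p under 0.05, for the 40 repair genes, the related lists and all genes, with dashed lines at 9.17% and 9.29%, the shares of all genes. The repair genes reach 21.6% on the left, and the 25 genes of G2 and mitosis and the 27 of G1/S and replication reach farther.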

How the data were processed

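RNA of 6 OVCAR3 samples was made into poly-A libraries with a stranded kit, per the labels' protocols. The authors deposited FPKM for each gene in each library, and the table of a comparison they ran. The deposited comparison gives the mean normalised count as a signal. It also gives the log2 fold change and its error, the statistic of the test as a score, and raw and adjusted p-values, in columns named as by DESeq2, per the file headers. Trimmomatic 0.32, TopHat2 2.1.1, Bowtie, DESeq2 1.12.4, R 3.3.1 and the builds GRCh38.p5 and hg19 are listed with no role given, per the submitters' processing notes. Which counter and annotation were used, and whether by strand, is not given in the sources used here, so overlapping and antisense genes are uncertain. Coordinates are the authors' and matched GENCODE 29 (GRCh38) for all 25344 identifiers of the same version. The deposited log2 fold change has empty vector on top, within 0.0113 of the FPKM ratio for 8277 genes over a mean normalised count of 500.

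FPKM times the mean normalised count over the mean FPKM were whole multiples of 1 step per library, within 0.001, for 100.0% of values. Groups were compared by limma 3.58.1 in R 4.3.3 (trend, 2-sided) on log2(FPKM + 1) over the 14761 genes whose mean reached 1 FPKM, adjusted by Benjamini-Hochberg over all of them, with a threshold of 0.05, and it was tested on simulated data. This scale understates the change of low genes, such as BRCA2, ATM and FANCB. Between libraries the chi-square per degree of freedom was 3.61 to 13.2 within groups, so no library was a copy of another. Exon overlap came from GENCODE 29 and regional medians from 10 Mb bins. The alternatives were other pseudocounts, filters, scalings and trends, a replicate block, limma-voom on recovered reads, and each library left out. The members and lists were chosen with earlier results of these data known. Values in every library are given for members past the threshold and for 10 members whatever their result, and up to 3 genes of each related list. The values of 1 gene of those lists are not reported here.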

Additional observations from a re-analysis of the deposited data

How the results depend on the processing

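Each of 16 alternatives kept the sign of every change it gave among 18 members recomputed. UBE2T, POLQ, ATR and RAD54B were called in every one, while the other 6 called members were lost in at least 1. Rises fell to 0 with no filter on low values, with equal library medians and with the replicate block, while falls stayed between 6 and 10 outside the fits without a library. Leaving out 1 library gave 4 to 8 falls and 0 to 1 rises among the members, 971 to 2744 called genes of all tested, against 2725, and 6 to 25 called genes of the related repair lists, against 20. Limma-voom on the recovered reads called 4438 genes and 40 of those lists, from more genes tested. Other causes were not tested.

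The replicate numbers shared by the groups were not taken as pairs, because the deviations of same-numbered libraries correlated at 0.12, 0.099 and 0.058, though each library correlated best with its own number. With the replicate block 2393 genes were called, and 7 members fell and 0 rose; 2 members were higher at an unadjusted p under 0.05 without it (limma). Depth limits RAD51B, with 86 to 191 reads a library, FAAP24, with 124 to 216, and FANCB, with 139 to 219.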
